A study of Mus musculus with 6 samples.

Results

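The bone morphogenetic protein (BMP) pathway and the Id genes it controls were examined in muscle stem cells (MuSCs) after muscle injury. The set held 10 genes of the 49671 in the deposited tables, taken by symbol, namely the ligand Bmp4, the receptors Bmpr1a and Bmpr2, the signal transducers Smad1 and Smad5, the inhibitory Smad6, and Id1, Id2, Id3, and Id4. RNA-Seq was performed on 6 libraries, 3 from C57BL/6 mice treated with resolvin D1 (RvD1, a lipid mediator derived from an omega-3 fatty acid) and 3 from mice given vehicle. All mice were female, aged 4 to 6 months, and carried the same injury, an injection of 50 μL of 1.2% barium chloride into both tibialis anterior (TA) muscles, so no uninjured group enters these comparisons. RvD1 was given daily at 100 ng IP over 72 hours, vehicle was 0.1% ethanol, and the MuSCs were sorted at day 3 from the 2 pooled TA muscles of each mouse. The sort kept cells bearing β1-integrin and CXCR4 and discarded those bearing Sca-1, CD11b, Ter119, or CD45. The labels also list CD31 among the negative markers, whereas the antibody panel in the study's methods does not name it.

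BMP ligands bind a pair of type I and type II receptor kinases, and the type I kinase phosphorylates Smad1 and Smad5, which enter the nucleus with Smad4. Id1, Id2, and Id3 are classic targets of that complex, and Smad6 is induced by it as a feedback inhibitor. Id proteins have a helix-loop-helix domain but no DNA-binding region. They bind E proteins such as those encoded by Tcf3, Tcf4, and Tcf12, keep them from pairing with MyoD, and so hold back myogenic differentiation. In regenerating muscle, BMP signaling is known for keeping activated MuSCs and myoblasts dividing before they differentiate.

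Sequences at the RefSeq start sites of 4 genes are shown. Id3 and Id2 stood at the top of the family, Id4 at its bottom, and Smad6 is the feedback gene that was paired with the Id genes below. They are RefSeq promoters on GRCm38.p6, written 5′ to 3′ on the strand of the gene. The Id2 stretch is chr12:25096093-25096342 (minus strand), that of Id3 is chr4:136143572-136143821 (plus strand), and that of Id4 is chr13:48260866-48261115 (plus strand). Each is the 250 bases before the RefSeq start site. By the GENCODE gene positions given below, the Id2 and Id3 stretches lie within those genes, so the RefSeq and GENCODE start sites differ there. The Smad6 stretch is chr9:64022056-64022305 (minus strand) and runs 4 bases past the start site. Capitals mark GGCGCC in Id2 and Id4, CAGAC or its reverse complement in Id3, and GTCTAGAC in Smad6.

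Id2: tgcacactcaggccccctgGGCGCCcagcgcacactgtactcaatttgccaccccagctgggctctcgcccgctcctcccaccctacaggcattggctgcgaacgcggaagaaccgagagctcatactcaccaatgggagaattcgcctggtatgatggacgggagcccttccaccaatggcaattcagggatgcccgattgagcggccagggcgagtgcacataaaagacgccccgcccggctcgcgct

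Id3: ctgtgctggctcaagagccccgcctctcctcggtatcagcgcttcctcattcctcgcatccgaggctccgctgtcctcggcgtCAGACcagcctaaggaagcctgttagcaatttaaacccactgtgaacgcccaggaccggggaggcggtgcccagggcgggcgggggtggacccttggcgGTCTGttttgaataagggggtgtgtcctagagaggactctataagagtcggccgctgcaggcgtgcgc

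Id4: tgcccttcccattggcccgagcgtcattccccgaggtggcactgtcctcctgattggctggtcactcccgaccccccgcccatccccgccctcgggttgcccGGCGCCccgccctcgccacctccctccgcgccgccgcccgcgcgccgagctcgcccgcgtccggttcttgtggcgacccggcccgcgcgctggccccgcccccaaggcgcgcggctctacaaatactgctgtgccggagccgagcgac

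Smad6: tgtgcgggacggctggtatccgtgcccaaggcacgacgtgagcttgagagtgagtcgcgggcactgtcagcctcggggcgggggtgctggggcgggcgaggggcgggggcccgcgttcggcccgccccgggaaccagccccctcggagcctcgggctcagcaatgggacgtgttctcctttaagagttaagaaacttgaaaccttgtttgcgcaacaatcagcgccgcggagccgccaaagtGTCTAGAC

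A RefSeq promoter, reaching from 250 bases before to 50 after the start site, was found for 9 of the 10 genes, all but Id1. Motifs were searched on both strands, and none of the marked matches overlaps another. GGCGCC, a GC-rich word bound by Smad1 and Smad5, was present for 5 of the 9 genes (Id2, Id4, Bmpr1a, Bmpr2, and Smad5) and in 11.9% of all 32851 promoters. Its first base lay 231 bases before the start site of Id2 and 148 before that of Id4. The Smad box palindrome GTCTAGAC was present only for Smad6 among the 9, beginning 4 bases before the start site, and in 0.213% of all promoters. CAGAC was present for Id3 (2 matches) and for 1 of the 3 listed start sites of Smad5, and in 49.6% of all promoters. The E-box CANNTG, the word bound by MyoD and E proteins, was present for Id2, Bmp4, Smad5, and Smad6, and in 72.3% of all promoters. The promoters of the 9 genes held 59.3% to 79.3% G and C, against a median of 52.7% over all promoters. The shares of GC-rich words were therefore not compared at equal composition. A gene was counted if any of its start sites had the word, whereas the share over all promoters is per promoter. These matches describe the letters only.

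Total expected counts (estimated reads per gene, not scaled for depth) ranged from 16148026 to 28149176 per library, and 3 counts correspond to 0.107 to 0.186 CPM (counts scaled to library size), a floor that covers counting error only. All 10 genes passed the filter on low counts. The labelled cell type was checked against 10 MuSC and myoblast markers, all of which had counts. Their summed level was 3132 to 3885 TPM (transcript abundance scaled for length and depth) with RvD1 and 2884 to 3228 TPM with vehicle, and Myog, which marks myoblasts entering differentiation, led the list with a mean of 977 TPM. Markers of other cells were present as well. The sums were 973 to 2278 TPM with RvD1 and 1112 to 1229 TPM with vehicle for 10 fibro-adipogenic markers, 40.4 to 80.3 and 36.7 to 42.6 TPM for 7 mural markers, 23.8 to 49.0 and 18.3 to 24.1 TPM for 6 Schwann markers, 41.6 to 65.7 and 58.4 to 103 TPM for 12 leukocyte markers, and 19.0 to 26.1 and 12 to 37.6 TPM for 10 endothelial markers. None of these markers was at 0 in every library. In sorted bulk samples, fewer cells of a type and less RNA per cell cannot be told apart.

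**Figure D1:**
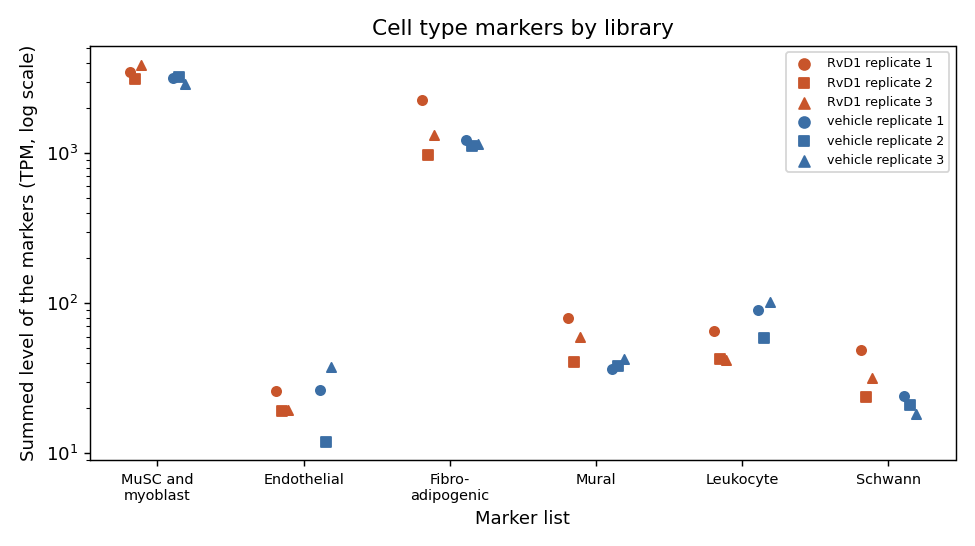
Summed TPM (log scale) of 6 marker lists in each of the 6 libraries, with color for treatment and shape for replicate number. The MuSC and myoblast list lies highest in every library, and RvD1 replicate 1 has the highest fibro-adipogenic, mural, and Schwann sums (2278, 80.3, and 49.0 TPM).

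Levels were compared between genes on the TPM scale. Id3 was the most abundant of the 10, at 670 ± 51.9 TPM (SD, n = 6), above 98.3% of the 14494 genes tested. Id2 followed at 345 ± 10.5 TPM and Id1 at 178 ± 26.2 TPM (SD, n = 6). The type I receptor gene Bmpr1a was at 55.7 ± 6.61 TPM, Smad1 at 34.6 ± 4.17 TPM, and Smad5 at 25.4 ± 4.09 TPM. Low levels were found for Bmp4 (5.17 ± 4.04 TPM), the type II receptor gene Bmpr2 (3.97 ± 0.801 TPM), Id4 (3.02 ± 0.801 TPM), and Smad6 (1.44 ± 0.163 TPM).

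This order held in all 6 libraries for 8 of the 9 neighboring pairs. Id3, Id2, Id1, and Bmpr1a had ranges that did not overlap, with mean ratios of 1.94 for Id3 over Id2, 1.93 for Id2 over Id1, and 3.20 for Id1 over Bmpr1a. The ranges of Smad1 and Smad5 overlapped, although Smad1 was higher within each library. Bmp4 exceeded Bmpr2 in 4 of the 6 libraries, so the order of those 2 genes was not settled. The steps from Smad5 to Bmp4 and from Id4 to Smad6 were clear of overlap. The 2 receptor genes differed widely, and Bmpr1a stood above 77.1% of genes tested whereas Bmpr2 stood above 27.9%.

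**Figure D2:**
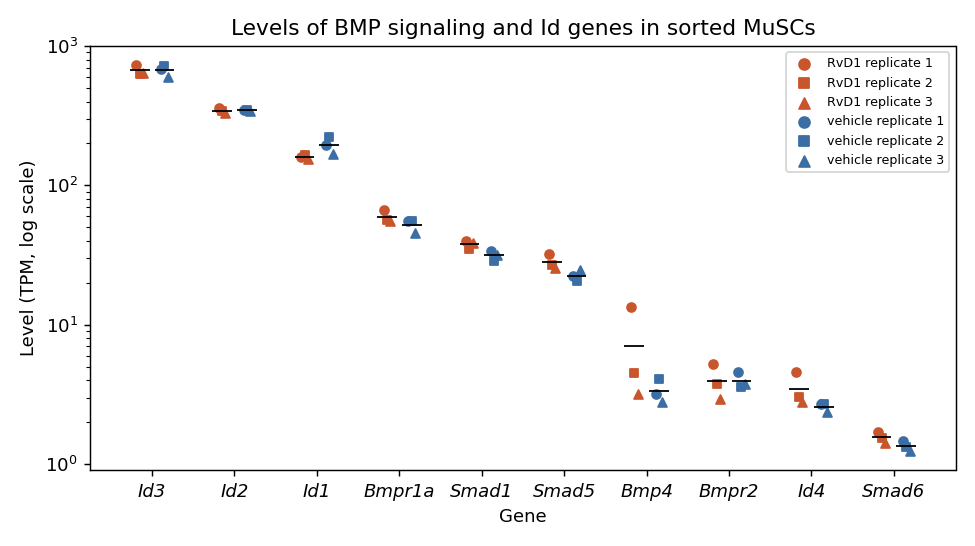
TPM (log scale) of the 10 genes in each library, ordered by mean level, with a black bar for the mean of each treatment group of 3 mice. Id3, Id2, and Id1 lie above 150 TPM in every library, and the RvD1 replicate 1 point of Bmp4 (13.3 TPM) lies apart from the other 5.

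Among themselves the genes differed in how steady they were between mice. The coefficient of variation over the 6 libraries was lowest for Id2 (3.04%) and was 7.75% for Id3 and 14.7% for Id1. It was between 11.3% and 26.5% for the other genes apart from Bmp4, for which it was 78.1%. The highest library exceeded the lowest 1.10-fold for Id2 and 4.81-fold for Bmp4.

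RvD1 and vehicle were then compared with edgeR's quasi-likelihood test on expected counts, fitted over all 14494 genes, to ask whether the pathway differed between treated and control MuSCs. None of the 10 genes had a Benjamini-Hochberg adjusted p under 0.05, nor did any gene of the table (0%). At an unadjusted p under 0.05, 1 of the 10 was lower with RvD1 (Id1), against 1.64% of all genes, and 0 were higher, against 1.83%. DESeq2 and limma-voom also gave 0 of the 10 at the adjusted threshold. Each gave 1 (Id1) at an unadjusted p under 0.05, beside 474 and 482 of the 14494 genes, respectively. With the study's procedure, limma-voom with surrogate variables removed, there were 2 (Id1 and Smad1), beside 2973 of the 26518 genes in that fit. That fit kept all genes with at least 1 count and scaled by library totals. On log2 TPM there were 3 (Id1, Smad1, and Smad5), beside 631 of the 14494 genes on log2(TPM + 1). None of these passed the adjusted threshold. Log2 fold changes of RvD1 over vehicle were positive for 6 genes and negative for 4, with a median of 0.03 (0.01 over all genes tested). On log2 CPM, the groups did not overlap for Id1 and Id2, which were lower with RvD1 (4.84% of all genes), and for Smad1, which was higher (4.77%). The share of all genes whose groups did not overlap on TPM was not counted, so the TPM separations given below have no such share beside them. The median log2 fold change over all genes was 0.08 on log2(TPM + 1), higher than in the edgeR fit.

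**Figure D3:**
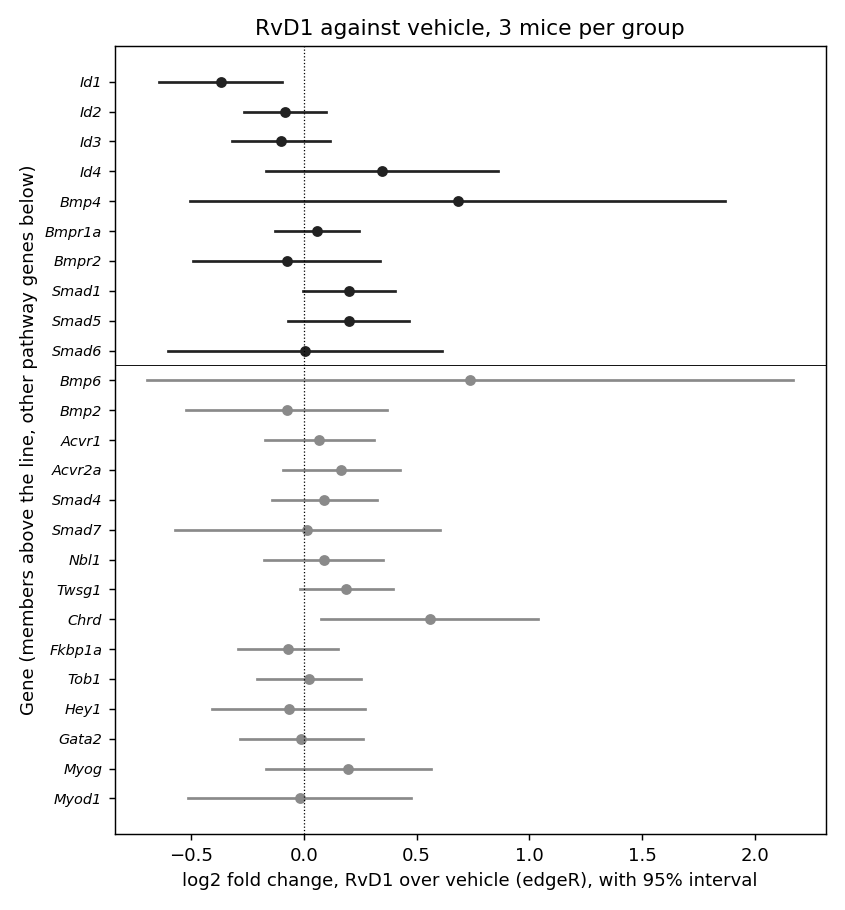
Log2 fold change of RvD1 over vehicle from edgeR (points) with its 95% interval (lines) for the 10 genes (black) and 15 other genes of the pathway (grey). Only the intervals of Id1 (−0.64 to −0.10) and Chrd (0.08 to 1.04) leave out 0, and neither gene passed the adjusted threshold.

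The ligand Bmp4 (ENSMUSG00000021835, chromosome 14, 46383520 to 46390669 on GRCm38) had the largest fold change and the least certain one. Its level was 13.3, 4.49, and 3.18 TPM in RvD1 replicates 1, 2, and 3 and 3.20, 4.08, and 2.77 TPM in vehicle replicates 1, 2, and 3. The groups overlapped, and 1 library, RvD1 replicate 1, stood apart with 179 counts against 30 to 84 in the others. RvD1 over vehicle gave a log2 value of 0.68 (standard error 0.52, 95% interval −0.50 to 1.87, edgeR adjusted p = 0.971). It was −0.17 without RvD1 replicate 1 (edgeR adjusted p = 0.977) and 1.05 without RvD1 replicate 3 (edgeR unadjusted p = 0.0430, adjusted p = 0.788). With limma-voom it was 0.43, and with the study's procedure, which differs from that fit in its gene filter and scaling as well as in the surrogate variable, it was 0.24. Over the alternatives tried, the adjusted p of Bmp4 ranged from 0.757 to 1.00.

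In RvD1 replicate 1, 8 of the 10 fibro-adipogenic markers were at their highest on CPM, against 30.6% of all genes tested. So were 5 of the 7 mural, 4 of the 6 Schwann, 3 of the 12 leukocyte, and 1 of the 10 endothelial markers. The fibro-adipogenic exceptions were Pdgfra, highest in RvD1 replicate 3, and Ly6a, highest in vehicle replicate 1. Of the 10 MuSC and myoblast markers, 5 were at their highest there (Pax7, Myf5, Vcam1, Chodl, and Sdc4), whereas Myod1, Itga7, and Des were at their lowest there. The part of these cells or states in the Bmp4 value was not tested.

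The receptor genes gave narrower limits. Bmpr1a (ENSMUSG00000021796, chromosome 14, 34410734 to 34503341), which encodes the type I receptor ALK3, was at 66.4, 56.1, and 55.5 TPM with RvD1 and 55.6, 55.3, and 45.5 TPM with vehicle. The groups overlapped, with RvD1 replicate 1 highest and vehicle replicate 3 lowest on TPM. Its log2 fold change was 0.06 (standard error 0.08, 95% interval −0.13 to 0.25, edgeR adjusted p = 0.971). Bmpr2 (ENSMUSG00000067336, chromosome 1, 59763400 to 59879014), the BMP type II receptor gene, was at 5.19, 3.76, and 2.93 TPM with RvD1 and 4.59, 3.55, and 3.78 TPM with vehicle. The RvD1 libraries held both the highest and the lowest value. Its fold change on the log2 scale was −0.08 (standard error 0.18, 95% interval −0.49 to 0.34, edgeR adjusted p = 0.977), and it was 0.09 without RvD1 replicate 3.

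Both transducer genes had higher means with RvD1. Smad1 (ENSMUSG00000031681, chromosome 8, 79338395 to 79399518) was at 40.1, 34.7, and 38.4 TPM with RvD1 and 33.6, 28.9, and 31.8 TPM with vehicle. Every RvD1 library lay above every vehicle library, on TPM as on CPM. RvD1 over vehicle gave a log2 fold change of 0.20 (standard error 0.09, 95% interval −0.00 to 0.41, edgeR unadjusted p = 0.0514, adjusted p = 0.971), and with 1 library left out it was 0.18 to 0.23. Smad5 (ENSMUSG00000021540, chromosome 13, 56703010 to 56742377) was at 32.4, 26.8, and 25.7 TPM with RvD1 and 22.3, 20.6, and 24.5 TPM with vehicle. The groups did not overlap on TPM and overlapped on CPM. The log2 fold change of Smad5 was 0.20 (standard error 0.12, 95% interval −0.07 to 0.47, edgeR adjusted p = 0.971), and it was 0.10 without RvD1 replicate 1 and 0.30 without RvD1 replicate 3 (edgeR unadjusted p = 0.0248, adjusted p = 0.788). Neither difference passed the test over all genes.

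Smad6 (ENSMUSG00000036867, chromosome 9, 63953076 to 64022059), the feedback inhibitor, was the least abundant of the set, with 42 to 64 counts per library. It was at 1.70, 1.54, and 1.41 TPM with RvD1 and 1.45, 1.32, and 1.24 TPM with vehicle. Its log2 fold change was 0.01 (standard error 0.27, 95% interval −0.60 to 0.61, edgeR adjusted p = 0.999), a value whose sign depended on the tool. At this depth the interval was wider than that of any of the 10 genes except Bmp4.

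Among the Id genes, Id1 (ENSMUSG00000042745, chromosome 2, 152736251 to 152737410) showed the clearest separation. Its level was 160, 167, and 156 TPM in RvD1 replicates 1, 2, and 3 and 194, 224, and 169 TPM in vehicle replicates 1, 2, and 3. Every RvD1 library was below every vehicle library, with means of 161 ± 5.59 TPM and 196 ± 27.6 TPM (SD, n = 3). The log2 fold change was −0.37 (standard error 0.12, 95% interval −0.64 to −0.10, edgeR unadjusted p = 0.0138, adjusted p = 0.971), so the difference did not pass the test over all genes. With 1 library left out, the log2 fold change of Id1 lay between −0.45 and −0.25. It was −0.25 without vehicle replicate 2, the library with the highest level, and the unadjusted p was then 0.0756. Over the alternatives tried, the adjusted p of Id1 ranged from 0.379 to 1.00.

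Id1 is also strongly expressed by endothelial cells, so markers of the other cells were read beside it. Of the endothelial markers, 8 of 10 had negative log2 fold changes, as did 11 of 12 leukocyte markers, against 6745 of the 14494 genes tested. Of these, 1 and 4, respectively, had an edgeR unadjusted p under 0.05, against 1.64% of all genes tested. The other lists went the other way, against 53.5% positive over all genes tested. Values were positive for 9 of 10 fibro-adipogenic, 7 of 7 mural, and 6 of 6 Schwann markers. Of those, 0, 2, and 2 had an edgeR unadjusted p under 0.05, against 1.83% of all genes tested. The fibro-adipogenic list also held 1 marker that was lower at that threshold. Most fibro-adipogenic, mural, and Schwann markers were highest in RvD1 replicate 1, as given above. The endothelial sum was 26.1, 19.0, and 19.4 TPM with RvD1 and 26.3, 12, and 37.6 TPM with vehicle. The leukocyte sum was 65.7, 42.4, and 41.6 TPM with RvD1 and 90.0, 58.4, and 103 TPM with vehicle. The groups overlapped for both sums. The part of endothelial or leukocyte RNA in the Id1 difference was not tested.

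Id2 (ENSMUSG00000020644, chromosome 12, 25093799 to 25097140) was at 361, 342, and 329 TPM with RvD1 and 349, 347, and 340 TPM with vehicle. On TPM the RvD1 libraries spanned the vehicle libraries, whereas on CPM each RvD1 library was below each vehicle library. Its log2 fold change was −0.08 (standard error 0.08, 95% interval −0.27 to 0.10, edgeR adjusted p = 0.971). Id3 (ENSMUSG00000007872, chromosome 4, 136143497 to 136145755) was at 729, 631, and 645 TPM with RvD1 and 688, 725, and 603 TPM with vehicle, with the groups overlapping. The log2 fold change of Id3 was −0.10 (standard error 0.10, 95% interval −0.32 to 0.12, edgeR adjusted p = 0.971). These 2 abundant genes had intervals that reached no farther from 0 than −0.32.

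Id4 (ENSMUSG00000021379, chromosome 13, 48261228 to 48266026) was at 4.60, 3.03, and 2.78 TPM with RvD1 and 2.68, 2.68, and 2.37 TPM with vehicle. The groups did not overlap on TPM but did on CPM, and RvD1 replicate 1 was again the highest. Its log2 fold change came to 0.35 (standard error 0.23, 95% interval −0.17 to 0.86, edgeR adjusted p = 0.971), and it was 0.11 without RvD1 replicate 1. An antisense gene with a mean of 1.33 counts (A330033J07Rik) and a long noncoding RNA overlap exons of Id4 on the other strand. Genes on the other strand also overlap exons of Bmpr1a (Gm17110, mean 6.37 counts) and Bmp4 (Gm15217, 0 counts).

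The make-up of the Id pool was computed from the same TPM values, so it restates them and is not separate evidence. Id1, Id2, Id3, and Id4 summed to 1177 ± 67.2 TPM with RvD1 and 1216 ± 93.6 TPM with vehicle (SD, n = 3), with overlapping groups. Id3 made up 56.8 ± 1.48% of the pool with RvD1 and 55.2 ± 0.979% with vehicle, and Id2 made up 29.3 ± 0.621% and 28.5 ± 1.90%. The share of Id1 was 12.7%, 14.6%, and 13.7% with RvD1 and 15.7%, 17.3%, and 15.2% with vehicle, and these did not overlap. The share of Id4 was 0.367%, 0.265%, and 0.245% with RvD1 and 0.217%, 0.206%, and 0.213% with vehicle, so it too did not overlap and was higher with RvD1. On CPM, however, the groups overlapped for Id4. These shares were not tested, and they have no share over all genes beside them.

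**Figure D4:**
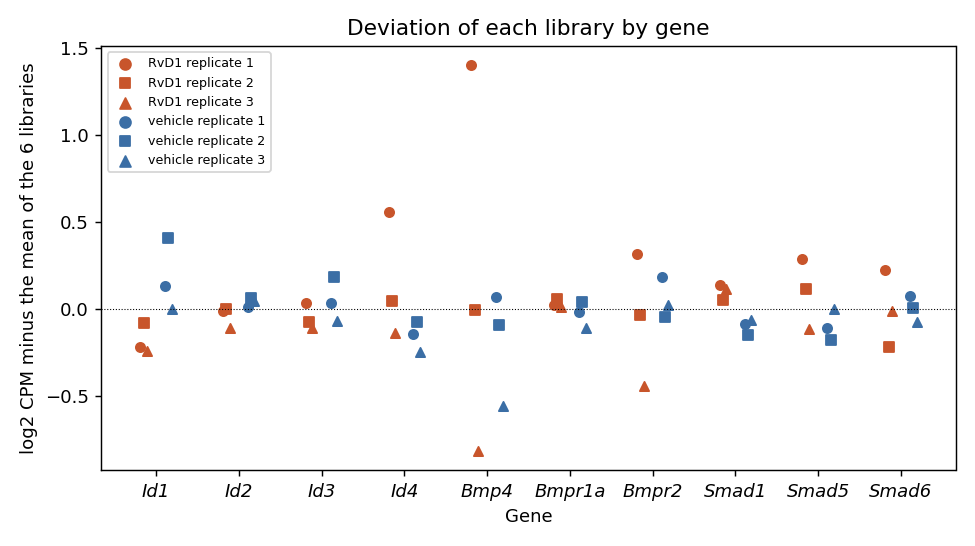
Log2 CPM of each gene minus its mean over the 6 libraries, one point per library. Id1 points of RvD1 libraries lie below those of vehicle libraries, Smad1 points lie above, and RvD1 replicate 1 is set apart for Bmp4.

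RvD1 replicate 1 recurred as the highest library. On TPM, 9 of the 10 genes were highest there (36.5% of all genes tested), the exception being Id1. On CPM, 6 of the 10 were (30.6% of all genes tested). Id1, Id2, and Id3 were all highest in vehicle replicate 2 and lowest in RvD1 replicate 3 on the CPM scale. Of the 10 genes, 5 were lowest in RvD1 replicate 3, as were 2514 of the 14494 genes tested. The share highest in vehicle replicate 2 was not counted. On TPM this did not hold, since Id2 and Id3 were highest in RvD1 replicate 1 and Id3 was lowest in vehicle replicate 3.

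Whether the targets varied together between mice was examined for the 6 pairs of Id1, Id2, Id3, and Smad6 on log2 CPM. Id1 and Id2 had Pearson's r = 0.769 (exact permutation p = 0.0750, adjusted over the 6 pairs 0.225) and Spearman's rho = 0.943 (exact permutation p = 0.0167, adjusted 0.1) over 6 libraries. With the 2 libraries farthest from the median of Id1 left out (RvD1 replicate 3 and vehicle replicate 2), r was 0.575, and within groups, after centering, it was 0.433. On log2(TPM + 1), r of Id1 and Id2 was 0.240. Id1 and Id3 had r = 0.790 (exact permutation p = 0.0569, adjusted 0.225) and rho = 0.657 (exact permutation p = 0.175, adjusted 0.350), with r = 0.769 within groups. Without the same 2 libraries r was −0.03. Those 2 are the ends of the Id1 range, so r over the other 4 cannot decide whether the relation holds. With 1 library left out, r was 0.323 without vehicle replicate 2, 0.725 without RvD1 replicate 3, and 0.969 without RvD1 replicate 1.

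Id2 and Id3 had r = 0.609 and rho = 0.600 (exact permutation p = 0.218 and p = 0.242, adjusted 0.436 and 0.363), and r was −0.54 without those 2 libraries. Smad6 had r = −0.09 with Id1 (exact permutation p = 0.858), −0.09 with Id2 (exact permutation p = 0.857), and 0.422 with Id3 (exact permutation p = 0.404), with rho of 0.0857, −0.09, and 0.657 (exact permutation p = 0.919, p = 0.919, and p = 0.175). Without the same 2 libraries these r values were −0.25, −0.38, and 0.906. No pair passed the adjusted threshold, and Smad6 has counting error of its own at its low depth.

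**Figure D5:**
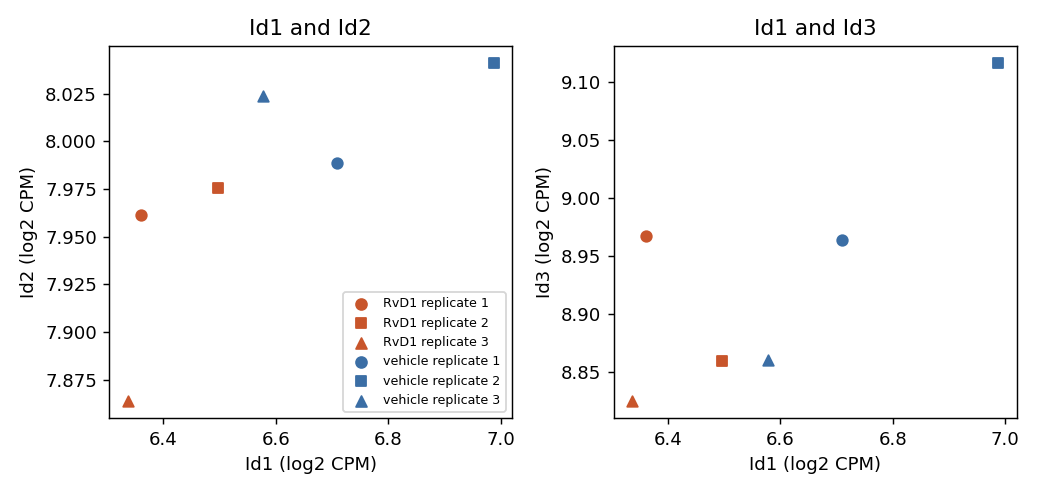
Log2 CPM of Id2 (left) and Id3 (right) against Id1, one point per library, with color for treatment and shape for replicate number. For Id2 r was 0.769 over the 6 libraries and 0.433 within groups, and for Id3 it was 0.790 and 0.769. Neither pair passed the adjusted threshold (exact permutation, adjusted p = 0.225 for both). RvD1 replicate 3 and vehicle replicate 2 mark the ends of the Id1 range.

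The rest of the pathway was read from a list of 74 genes, of which 59 had enough counts to be tested and 4 (Bmp10, Gdf2, Gdf7, and Dlx5) were at 0 in every library. None passed the adjusted threshold, and at an unadjusted p under 0.05 there was 1 gene higher (Chrd) and 0 lower, against 1.83% and 1.64% of all genes tested. Log2 fold changes were positive for 43 of the 59 (72.9%, against 53.5% of all genes tested), with a median of 0.09. Without RvD1 replicate 1 the median was −0.03. Of the 59 genes, 37 (62.7%) were highest in RvD1 replicate 1 on CPM (30.6% of all genes tested), and 3 (Chrd, Twsg1, and Map3k7) had groups that did not overlap on CPM and were higher with RvD1, against 4.77% of all genes tested, a share near that of the list. None was lower without overlap, against 4.84%. Map3k7 was chosen for naming after its values were seen.

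The other ligands were scarce, as Bmp4 was, and 4 of 13 were tested. Vehicle means were 3.35 TPM for Bmp4, 3.44 TPM for Bmp6, and 3.60 TPM for Bmp2. Bmp6 was at 11.3, 1.41, and 3.22 TPM with RvD1 and 5.83, 3.10, and 1.40 TPM with vehicle (log2 fold change 0.74, standard error 0.63), high in RvD1 replicate 1 as Bmp4 was. Bmp2 was at 3.46 to 3.79 TPM with RvD1 and 3.22 to 4.30 TPM with vehicle (log2 fold change −0.08, standard error 0.20).

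All 10 other receptor and co-receptor genes were tested, 7 with positive and 3 with negative log2 fold changes. Acvr1, which encodes the type I receptor ALK2, was at 31.6 to 36.2 TPM with RvD1 and 27.6 to 34.1 TPM with vehicle (log2 fold change 0.07, standard error 0.11). Acvr2a, a type II receptor gene shared with activins, was at 27.9 to 39.4 TPM and 29.2 to 31.1 TPM (log2 fold change 0.17, standard error 0.11). Both were several times above Bmpr2 in every library on the TPM scale.

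Of the other Smads, Smad4, the partner shared with TGF-β signaling, was at 94.7 to 112 TPM with RvD1 and 84.1 to 105 TPM with vehicle (log2 fold change 0.09, standard error 0.10). The inhibitory Smad7 was at 15.4, 7.77, and 5.62 TPM with RvD1 and 11.1, 10.5, and 7.14 TPM with vehicle (log2 fold change 0.02, standard error 0.26), with the RvD1 libraries spanning the vehicle libraries. Smad9, the remaining BMP transducer, had a mean of 10.5 counts and was too low to be tested.

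Extracellular antagonists and modulators had 13 of 16 genes tested, 10 with positive and 3 with negative log2 fold changes. Chrd, which encodes the secreted BMP antagonist chordin, was at 3.88, 3.57, and 4 TPM with RvD1 and 2.71, 3.07, and 2.12 TPM with vehicle. All RvD1 libraries were above all vehicle libraries, and the log2 fold change was 0.56 (standard error 0.21, 95% interval 0.08 to 1.04, edgeR unadjusted p = 0.0275, adjusted p = 0.971). Twsg1, a partner of chordin, was at 103, 88.1, and 88.6 TPM with RvD1 and 78.6, 72.2, and 78.1 TPM with vehicle (log2 fold change 0.19, standard error 0.09, edgeR unadjusted p = 0.0685, adjusted p = 0.971). Nbl1, an antagonist of the DAN family, was at 139 to 184 TPM and 129 to 151 TPM (log2 fold change 0.09, standard error 0.12).

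Intracellular modulators were all tested (15 genes, 11 positive and 4 negative). Fkbp1a, whose product FKBP12 holds type I receptors inactive, was at 597 to 678 TPM with RvD1 and 614 to 661 TPM with vehicle (log2 fold change −0.07, standard error 0.10). Tob1, an antiproliferative protein that binds Smads, was at 125 to 144 TPM and 114 to 130 TPM (log2 fold change 0.02, standard error 0.10). Map3k7, which encodes the kinase TAK1, was at 60.0 to 66.4 TPM and 45.7 to 57.6 TPM (log2 fold change 0.02, standard error 0.08).

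Of the 9 other transcriptional targets, 7 were tested, 4 positive and 3 negative. Hey1, a repressor also driven by Notch, was at 28.1 to 40.0 TPM with RvD1 and 28.9 to 35.9 TPM with vehicle (log2 fold change −0.07, standard error 0.15). Gata2 was at 19.9 to 23.1 TPM and 19.7 to 22.0 TPM (log2 fold change −0.01, standard error 0.12).

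The basic helix-loop-helix genes whose products Id proteins hold back were all tested, 6 positive and 2 negative. Myog was at 972, 870, and 1378 TPM with RvD1 and 851, 974, and 818 TPM with vehicle (log2 fold change 0.20, standard error 0.16). Myod1 was at 239, 382, and 470 TPM with RvD1 and 325, 343, and 376 TPM with vehicle (log2 fold change −0.02, standard error 0.22). On CPM, 5 of these 8 genes were highest in RvD1 replicate 1, against 30.6% of all genes tested. The other 3 (Myog, Myod1, and Tcf3) were highest in RvD1 replicate 3, a share not counted over all genes. Lowest in RvD1 replicate 3 were 3 genes (Myf5, Myf6, and Hes1), as were 2514 of the 14494 genes tested. A relation of these genes to the Id genes was not tested.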

How the data were processed

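RNA-Seq of FACS-sorted MuSCs was analyzed from 3 RvD1-treated and 3 vehicle-treated mice. Reads of 76 bp were aligned by the authors to mm10 with STAR 2.5.0a and quantified with RSEM. Expected counts were deposited as estimated reads per gene without scaling for depth. TPM, as deposited, adjusts for transcript length and library size. FPKM values were not used. The study's methods call the data single-stranded, but the library kit (SMART-Seq v4) does not mark strand and the strand setting of RSEM is not given in the sources used here. Whether reads of overlapping antisense genes were separated is therefore uncertain.

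Expected counts were rounded and tested with edgeR 4.0.16 in R 4.3.3 (TMM, filterByExpr with its minimum count of 10, quasi-likelihood test, Benjamini-Hochberg adjustment over 14494 genes). P values reflect the spread between mice. Log2 CPM used a prior count of 2. Intervals are 95% intervals from the fold change, its standard error, and the fitted degrees of freedom. Correlations used exact two-sided permutation with SciPy 1.17.1. Gene positions are from GENCODE M21 on GRCm38. Alternatives were DESeq2 1.42.0, limma 3.58.1 (voom), the study's procedure (limma-voom on genes with at least 1 count, library totals, 1 surrogate variable removed with sva 3.50.0), other scaling, no count filter, a replicate block, log2 TPM with pseudocounts of 1 and 0.1, and each library left out. The count tests were also tested on simulated counts.

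The genes and lists were chosen with earlier results of these data known. Besides the 10 genes, the 2 most abundant genes of each pathway subgroup and those with an unadjusted p under 0.05 were named.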

Additional observations from a re-analysis of the deposited data

How the results depend on the processing

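No gene of the set and no other pathway gene had an adjusted p under 0.05 under any of the alternatives tried. Over all genes the number was 0 apart from 12 without a filter on low counts, and 0 to 1 with 1 library left out (1 without RvD1 replicate 3). Without a library, log2 fold changes ranged from −0.17 to 1.05 for Bmp4, −0.27 to 0.0932 for Bmpr2, −0.12 to 0.11 for Smad6, 0.11 to 0.48 for Id4, and 0.10 to 0.30 for Smad5. The sign of Smad6, whose value was 0.01, turned with RLE size factors (−0.000419), DESeq2 (−0.00103), limma-voom (−0.0183), the study's procedure with surrogate variables removed and no count filter (−0.0437), and the replicate block (−0.00431). Without a library, r ranged from 0.71 to 0.83 for Id1 and Id2, 0.32 to 0.97 for Id1 and Id3 (exact permutation p = 0.00833 without RvD1 replicate 1), −0.30 to 0.39 for Id1 and Smad6, 0.38 to 0.84 for Id2 and Id3, −0.26 to 0.00677 for Id2 and Smad6, and 0.28 to 0.75 for Id3 and Smad6. On log2(TPM + 1), r of Id2 and Smad6 was 0.575. These causes were not tested. Library-total scaling moved the median log2 fold change of all genes from 0.01 to 0.05, and log2(TPM + 1) to 0.08.

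Deviations from the group means had correlations of 0.310, −0.0007, and 0.126 between same-numbered libraries of the 2 groups. Between differently numbered libraries they ran from −0.246 to 0.173. The numbers were not taken as pairs in the main test, and these values do not settle whether they are. With the replicate block, 896 genes had an unadjusted p under 0.05 against 503 without it, and no call changed. The log2 fold change of Id1 was then −0.36 (standard error 0.094, edgeR unadjusted p = 0.00375, adjusted p = 0.791). Standard errors were largest for Bmp4 (0.52), Smad6 (0.27), and Id4 (0.23), whose mean counts were 71.7, 49.2, and 143. The standard error of Bmp4 was 0.36 without RvD1 replicate 1. What set these standard errors was not tested.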
